A study of Mus musculus with 12 samples.

Results

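The 8 genes described here encode chemokine receptors that steer T cells to the gut and to inflamed tissue: Ccr2, Ccr4, Ccr6, Ccr8, Ccr9, Ccr10, Cxcr3 and Cxcr6. They were chosen by symbol out of 19937 genes with a probe set of their own on the array, and each had 1 probe set annotated to it alone. RNA came from 12 samples of CD4+ T cells, 3 in each of 4 groups, sorted from the lymphoid follicles in the mouse gut wall known as Peyer's patches. GFP+ Tfh were GFP+CXCR5+PD1+ cells and GFP- Tfh were GFP-CXCR5+PD1+ cells, where Tfh stands for T follicular helper cells, which help B cells in follicles. The other groups were GFP-CXCR5+PD1- cells and GFP-CXCR5-PD1- cells, called CXCR5+PD1- and CXCR5-PD1- below. All samples came from mice with an IL-21eGFP BAC, a transgene in which green fluorescent protein (GFP) reports the cytokine gene Il21, and no sample without the transgene was among the 12. The series set out to compare GFP+ with GFP- Tfh. A transgene's fluorescence reports the Il21 regulatory DNA carried on the BAC and can persist after transcription stops. The sorting gate kept cells negative for MHC class II and Epcam. The labels do not give the age of the mice, whether animals were pooled, or whether each replicate is a separate animal, and the p-values therefore measure only how far these samples spread, which may be technical in part. They call the cells of all 4 groups T follicular helper, and for the GFP+ samples list CXCR5 and PD1 as negative where the titles give both as positive. Groups follow the titles.

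Chemokines are small secreted proteins that form gradients in tissue, and T cells follow them through receptors with a bundle of membrane-spanning helices that signal through inhibitory G proteins. Which receptors a T cell carries depends on where and how it was activated. CCR9 answers to CCL25 of the small intestinal epithelium, CCR10 to CCL28 of mucosal epithelium and CCL27 of skin, and CCR6 to CCL20, which the epithelium over Peyer's patches releases. CCR4 and CCR8 are known from Th2 and regulatory T cells, and CXCR3, CXCR6 and CCR2 from effector and memory T cells in inflamed tissue. Tfh cells are instead drawn into follicles by CXCR5.

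Below are the promoter sequences of the members whose levels differed most between the groups, each running from 250 bases before to 50 bases after a transcription start, from RefSeq on GRCm38.p6 and read on the gene's strand. Of the 8 members, 7 had a promoter in that table, and Ccr6 had 2, at 2 start sites. Capitals mark matches on either strand to 4 motifs: AGGTCA, bound by nuclear receptors such as those for retinoic acid; AGATAA, bound by factors of the GATA family; AGGTGT, the core of T-box sites; and TGGAAA, the core of NFAT sites. None of the printed matches overlap each other.
Ccr6 first start site (chr17:8235793-8236092, plus strand): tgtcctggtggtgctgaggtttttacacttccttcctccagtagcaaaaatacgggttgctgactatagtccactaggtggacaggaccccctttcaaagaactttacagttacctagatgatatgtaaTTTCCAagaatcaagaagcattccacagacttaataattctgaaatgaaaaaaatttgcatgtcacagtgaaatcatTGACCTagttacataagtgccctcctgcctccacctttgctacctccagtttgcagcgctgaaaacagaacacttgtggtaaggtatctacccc
Ccr6 second start site (chr17:8242276-8242575, plus strand): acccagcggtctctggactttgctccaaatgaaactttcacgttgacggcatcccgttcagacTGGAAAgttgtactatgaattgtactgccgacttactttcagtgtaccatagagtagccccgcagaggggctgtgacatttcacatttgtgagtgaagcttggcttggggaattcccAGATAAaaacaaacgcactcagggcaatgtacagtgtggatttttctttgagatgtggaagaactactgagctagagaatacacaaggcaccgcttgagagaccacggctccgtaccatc
Ccr9 (chr9:123766961-123767260, plus strand): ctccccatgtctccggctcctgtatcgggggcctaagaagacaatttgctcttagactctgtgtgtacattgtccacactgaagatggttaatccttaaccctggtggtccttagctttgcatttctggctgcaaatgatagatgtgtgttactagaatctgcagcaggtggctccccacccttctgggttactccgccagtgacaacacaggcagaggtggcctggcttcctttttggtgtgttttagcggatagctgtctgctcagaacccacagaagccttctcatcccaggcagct
Ccr4 (chr9:114496495-114496794, minus strand): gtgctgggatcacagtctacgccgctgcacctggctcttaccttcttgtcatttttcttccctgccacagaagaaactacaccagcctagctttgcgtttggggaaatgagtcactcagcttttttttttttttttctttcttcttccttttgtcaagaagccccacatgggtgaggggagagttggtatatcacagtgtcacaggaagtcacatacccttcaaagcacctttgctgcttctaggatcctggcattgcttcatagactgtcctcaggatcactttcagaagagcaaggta
Ccr8 (chr9:120091883-120092182, plus strand): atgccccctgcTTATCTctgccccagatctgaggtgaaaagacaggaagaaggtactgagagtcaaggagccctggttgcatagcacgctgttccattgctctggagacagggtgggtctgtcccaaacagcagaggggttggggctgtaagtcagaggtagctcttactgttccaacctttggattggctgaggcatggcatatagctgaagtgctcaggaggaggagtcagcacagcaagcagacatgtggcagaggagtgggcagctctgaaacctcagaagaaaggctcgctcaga
The first Ccr6 promoter held 1 match to AGGTCA, at bases 207 to 212, and 1 to TGGAAA, at bases 130 to 135, counted from the 5′ end. The second held 1 match to AGATAA, at bases 181 to 186, and 1 to TGGAAA, at bases 64 to 69. Ccr8 had 1 match to AGATAA, at bases 12 to 17, and the windows of Ccr9 and Ccr4 held none of the 4 motifs. Of 32851 promoters of 300 bases in the table, 16.3% held AGGTCA, 11.2% held AGATAA, 13.7% held AGGTGT and 21.4% held TGGAAA, so such matches are common. A match is a run of letters and no evidence that a factor binds there.

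Values below are log2 expression from the authors' RMA normalisation, in which a difference of 1 is a doubling. The median of all probe sets was 6.34 to 6.45 over the arrays. Signals below it are compressed, so fold differences that involve such values can be understated. Ccr4, Ccr10, Cxcr3 and Cxcr6 lay above their array's median on 12 of 12 arrays, Ccr6 on 11, Ccr9 on 5, Ccr8 on 2 and Ccr2 on 0. Genes above the median on at least 3 arrays were tested, which kept 11240 genes and 6 of the 8 members; Ccr8 and Ccr2 are described without a test. Tests are limma contrasts over all 12 arrays, with p-values adjusted by Benjamini-Hochberg over the genes tested and called at 0.05. In the text, means are given ± SD with n = 3, and differences ± SE.

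The sorted cells carried T cell transcripts. The 5 measured T cell markers (Cd3e, Cd3d, Cd3g, Cd5 and Cd28) lay above the median on all 12 arrays. Il21 RNA averaged 10.60 ± 0.31 in GFP+ Tfh and 9.96 ± 0.34 in GFP- Tfh. That difference of 0.63 ± 0.56 did not pass (limma adjusted p = 0.824). Its SE comes from a spread shared by all 4 groups. The values of the 2 Tfh groups did not overlap, at 10.25 to 10.82 (GFP+) and 9.57 to 10.17 (GFP-). Of all genes, 4.95% were higher without overlap in that contrast. In the PD1- groups Il21 averaged 6.50 ± 1.11 (CXCR5+PD1-) and 6.64 ± 1.09 (CXCR5-PD1-). GFP- Tfh thus carried Il21 RNA too, 3.32 ± 0.56 above CXCR5-PD1- cells (limma adjusted p = 0.00557). Cxcr5 averaged 8.95 ± 0.29 in GFP+ Tfh and 8.21 ± 0.36 in GFP- Tfh. It was below the array median in both PD1- groups, at 5.61 ± 0.37 (CXCR5+PD1-) and 5.71 ± 0.43 (CXCR5-PD1-), so the Cxcr5 RNA of the 2 groups did not differ the way their labels do (-0.10 ± 0.26, limma adjusted p = 1.0). The GFP+ arrays varied most among themselves, lying a root mean square distance of 0.287 to 0.405 from the mean of their group against 0.163 to 0.204 on the other 9 arrays. Xist, expressed from the inactive X chromosome of females, stood at 10.65 to 11.25 on the 4 arrays numbered replicate 3 and at 4.87 to 5.49 on the other 8, so the replicate number goes with the sex of the mice. The spread within each group therefore includes a difference between mice of different sex. Markers of germinal centre B and plasma cells (7 measured, 2 above the median on all arrays and 3 on none) summed to a log2 level of 9.48 to 10.25 (GFP+ Tfh), 9.58 to 9.86 (GFP- Tfh), 9.55 to 9.77 (CXCR5+PD1-) and 9.30 to 9.69 (CXCR5-PD1-). The sum of 10 epithelial markers, 3 above the median on all arrays and 7 on none, was 9.20 to 9.62 (GFP+ Tfh), 9.40 to 9.54 (GFP- Tfh), 9.40 to 9.56 (CXCR5+PD1-) and 9.43 to 9.50 (CXCR5-PD1-).

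**Figure D1:**
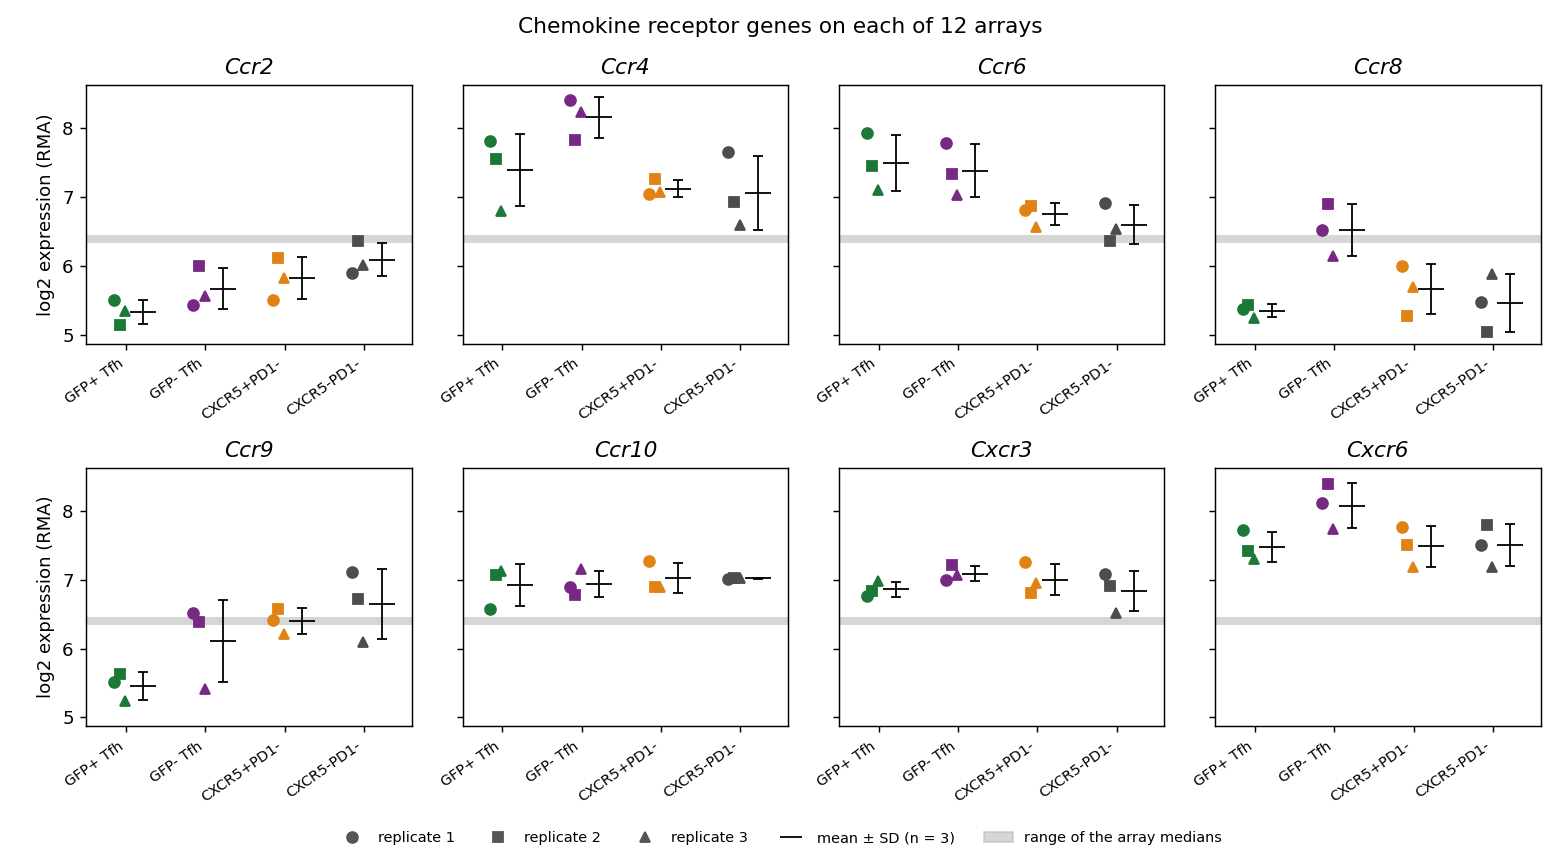
Log2 expression of the 8 receptor genes on each of the 12 arrays, by sorted group, with the marker shape giving the replicate number, the black bar the mean ± SD (n = 3) and the grey band the range of the array medians (6.34 to 6.45). Ccr6 sits higher and Ccr9 lower in GFP+ Tfh than in both PD1- groups, and Ccr4 and Ccr8 are highest in GFP- Tfh.

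Ccr9, the receptor for the small intestinal chemokine CCL25, was lowest in GFP+ Tfh. It stood at 5.51, 5.63 and 5.24 in GFP+ Tfh, against 7.11, 6.72 and 6.10 in CXCR5-PD1- cells. The 3 GFP+ arrays lay below every PD1- array, and also below the median of their own array. Ccr9 fell by 1.18 ± 0.30 on the log2 scale in GFP+ Tfh relative to CXCR5-PD1- cells (limma adjusted p = 0.0379), a 2.27-fold difference with a 95% interval from -1.83 to -0.53. In these bulk samples, fewer cells with a transcript and less of it per cell cannot be told apart. The call is not firm: the adjusted p was 0.0553 with no filter on low values, 0.186 with 1 weight per group and 0.0528 to 0.137 without any 1 of the 3 GFP+ Tfh replicates or of CXCR5-PD1- replicates 1 and 2. It passed without CXCR5-PD1- replicate 3, with cyclic loess (limma adjusted p = 0.0467) and with the replicate number as a block (limma adjusted p = 0.00449). It also passed without replicate 3 of every group (limma adjusted p = 0.0055), but not with the 2 groups alone (limma adjusted p = 0.0823).

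The Ccr9 values were 6.51, 6.39 and 5.42 in GFP- Tfh, against 6.41, 6.58 and 6.21 in CXCR5+PD1- cells. GFP- Tfh thus spanned the range between GFP+ Tfh and the PD1- groups, with 1 array as low as GFP+ Tfh. From low to high, the means were 5.46 ± 0.20 (GFP+ Tfh), 6.11 ± 0.60 (GFP- Tfh), 6.4 ± 0.18 (CXCR5+PD1-) and 6.64 ± 0.51 (CXCR5-PD1-), and values overlapped at each step. The difference of -0.94 ± 0.30 between GFP+ Tfh and CXCR5+PD1- cells did not pass (adjusted p = 0.0988), although those groups did not overlap; it passed with the replicate number as a block (adjusted p = 0.0158). The difference of -0.65 ± 0.30 between GFP+ and GFP- Tfh did not pass either (adjusted p = 0.674), nor did that of -0.54 ± 0.30 between GFP- Tfh and CXCR5-PD1- cells (adjusted p = 0.541). Within each of the 4 groups replicate 3, the female one, had the lowest Ccr9. Between arrays of the same number, GFP+ Tfh minus CXCR5-PD1- was -1.60, -1.08 and -0.86, and GFP+ Tfh minus CXCR5+PD1- was -0.90, -0.94 and -0.98.

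Ccr10, whose ligand CCL28 is made by mucosal epithelium, had group means that lay between 6.92 and 7.03. It averaged 6.92 ± 0.30 in GFP+ Tfh and 6.94 ± 0.19 in GFP- Tfh, against 7.03 ± 0.21 in CXCR5+PD1- and 7.02 ± 0.01 in CXCR5-PD1- cells. The 95% interval of the difference between GFP+ Tfh and CXCR5-PD1- cells ran from -0.46 to 0.27, and no pair of groups was free of overlap.

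Ccr6, the receptor for CCL20, was higher in both Tfh groups than in both PD1- groups, without overlap. The GFP+ Tfh arrays had 7.93, 7.45 and 7.11 and the GFP- Tfh arrays 7.79, 7.33 and 7.03. The PD1- groups had 6.81, 6.87 and 6.57 (CXCR5+PD1-) and 6.91, 6.36 and 6.53 (CXCR5-PD1-). The lowest Tfh array thus lay above the highest PD1- array. Ccr6 rose by 0.89 ± 0.24 in GFP+ Tfh relative to CXCR5-PD1- cells (limma adjusted p = 0.0489), a 1.86-fold difference with a 95% interval from 0.37 to 1.42.

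For the other contrasts of a Tfh with a PD1- group, Ccr6 differed by 0.78 ± 0.24 (GFP- Tfh over CXCR5-PD1-, adjusted p = 0.113), 0.74 ± 0.24 (GFP+ Tfh over CXCR5+PD1-, adjusted p = 0.104) and 0.63 ± 0.24 (GFP- Tfh over CXCR5+PD1-, adjusted p = 0.245), none past the threshold. With the replicate number as a block, the adjusted p was 0.0195 for the first, 0.0207 for the second, both past it, and 0.00786 for the called difference. The 2 Tfh groups differed by 0.11 ± 0.24 (adjusted p = 0.935), with a 95% interval from -0.41 to 0.63. The called difference also lies near the threshold: its adjusted p was 0.0695 with no filter, 0.0698 with cyclic loess, 0.158 with 1 weight per group and 0.0903 to 0.162 without GFP+ Tfh replicate 1 or 2 or CXCR5-PD1- replicate 2 or 3. It passed without GFP+ Tfh replicate 3 or CXCR5-PD1- replicate 1. Its size was 0.89 under the first 3 of these settings and 0.68 to 1.09 with single replicates left out. B cells also carry CCR6. Of 8 measured B cell markers, 0 lay above the median on all 12 arrays and 3 on none, and the log2 of their summed level was 8.75 to 8.99 in GFP+ Tfh and 8.79 to 8.94 in GFP- Tfh, against 8.80 to 8.82 in CXCR5+PD1- and 8.66 to 8.90 in CXCR5-PD1- cells. Of the defining B cell genes, Ms4a1 averaged 4.57 in GFP+ Tfh and 4.42 in CXCR5-PD1- cells, below the median on every array. Cd79a averaged 4.90 ± 0.24 in GFP+ Tfh and 5.59 ± 0.99 in CXCR5-PD1- cells, where 1 array, at 6.65, lay above the median. Pax5 averaged 6.57 in GFP+ Tfh and 6.10 in CXCR5-PD1- cells (limma adjusted p = 0.0171). The other tested markers, Cd22 and Cd79b, differed there by 0.20 ± 0.12 and 0.07 ± 0.15 (limma adjusted p = 0.429 and 0.880). The part of B cells in the Ccr6 difference was not tested.

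Ccr4 and Ccr8, receptors known from Th2 and regulatory T cells, had their highest levels in GFP- Tfh. Ccr4 stood at 7.81, 7.56 and 6.80 in GFP+ Tfh, against 8.41, 7.83 and 8.24 in GFP- Tfh. The PD1- groups had 7.04, 7.26 and 7.07 (CXCR5+PD1-) and 7.65, 6.93 and 6.6 (CXCR5-PD1-). Each GFP- Tfh array lay above the other 9, the nearest values being 7.81 in GFP+ Tfh and 7.83 in GFP- Tfh. Ccr4 differed by 1.09 ± 0.29 between GFP- Tfh and CXCR5-PD1- cells (adjusted p = 0.0648) and by 1.03 ± 0.29 between GFP- Tfh and CXCR5+PD1- cells (adjusted p = 0.0868), so neither passed. Both passed with 1 weight per group (adjusted p = 0.0187 and 0.0173) with the 2 groups alone (adjusted p = 0.0489 and 0.00736) and with the replicate number as a block (adjusted p = 0.0319 and 0.0433), and the first also without CXCR5-PD1- replicate 1 (1.39, adjusted p = 0.0242). GFP+ Tfh overlapped both PD1- groups in Ccr4, with differences of 0.33 ± 0.29 from CXCR5-PD1- (adjusted p = 0.633) and 0.27 ± 0.29 from CXCR5+PD1- (adjusted p = 0.739). Between GFP+ and GFP- Tfh the difference was -0.77 ± 0.29 (adjusted p = 0.590), with a 95% interval from -1.40 to -0.13 that is not adjusted for the number of genes.

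Ccr8 was above its array's median on 2 of the 3 GFP- Tfh arrays and on none of the other 9, and so was not tested. It stood at 5.38, 5.43 and 5.25 in GFP+ Tfh, against 6.52, 6.90 and 6.14 in GFP- Tfh. The PD1- groups had 6.0, 5.28 and 5.70 (CXCR5+PD1-) and 5.47, 5.04 and 5.88 (CXCR5-PD1-). Each GFP- Tfh array was higher than the other 9, and the other 3 groups overlapped. The means differed by -1.17 between GFP+ and GFP- Tfh, a 2.25-fold difference on a compressed scale, by 1.06 between GFP- Tfh and CXCR5-PD1- cells, and by 0.86 between GFP- Tfh and CXCR5+PD1- cells. Fitted with no filter, these had adjusted p-values of 0.264, 0.0512 and 0.134. Foxp3, which marks regulatory T cells, averaged 7.03 ± 0.27 in GFP+ Tfh and 7.66 ± 0.17 in GFP- Tfh, against 7.68 ± 0.20 in CXCR5+PD1- and 7.95 ± 0.25 in CXCR5-PD1- cells. Like Ccr4 and Ccr8, it had a lower mean in GFP+ than in GFP- Tfh (-0.64 ± 0.18, adjusted p = 0.416), and unlike them its highest mean was in CXCR5-PD1- cells. Ikzf2, which regulatory T cells and Tfh cells both express, ranged over 11.05 to 11.16 (GFP+ Tfh), 10.91 to 11.11 (GFP- Tfh), 8.5 to 9.53 (CXCR5+PD1-) and 8.99 to 9.69 (CXCR5-PD1-). The part of regulatory T cells in the Ccr4 and Ccr8 levels was not tested.

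Cxcr6, the receptor for CXCL16, is carried by effector and tissue-resident T cells. It stood at 7.72, 7.41 and 7.30 in GFP+ Tfh, against 8.11, 8.39 and 7.73 in GFP- Tfh. The PD1- groups had 7.77, 7.51 and 7.18 (CXCR5+PD1-) and 7.51, 7.80 and 7.19 (CXCR5-PD1-). The means were 7.48 ± 0.22 (GFP+ Tfh), 8.08 ± 0.33 (GFP- Tfh), 7.49 ± 0.29 (CXCR5+PD1-) and 7.50 ± 0.30 (CXCR5-PD1-), with GFP- Tfh highest. The GFP+ and GFP- Tfh arrays did not overlap, but the nearest values were 7.72 in GFP+ Tfh and 7.73 in GFP- Tfh. The difference of -0.60 ± 0.22 between GFP+ and GFP- Tfh did not pass (adjusted p = 0.564), nor did those of 0.58 ± 0.22 between GFP- Tfh and CXCR5-PD1- cells (adjusted p = 0.225) and 0.59 ± 0.22 between GFP- Tfh and CXCR5+PD1- cells (adjusted p = 0.220). Cxcr6 and Ccr9 lie next but one to each other on chromosome 9, with Fyco1 between them, yet their orders differed: Cxcr6 had its highest mean in GFP- Tfh and Ccr9 in CXCR5-PD1- cells.

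Cxcr3, the receptor for the interferon-induced chemokines CXCL9 and CXCL10 and a hallmark of Th1 cells, had group means between 6.84 and 7.09. It averaged 6.86 ± 0.11 in GFP+ Tfh and 7.09 ± 0.11 in GFP- Tfh, against 7.0 ± 0.23 in CXCR5+PD1- and 6.84 ± 0.29 in CXCR5-PD1- cells. GFP+ Tfh lay at 6.76 to 6.98 and GFP- Tfh at 6.99 to 7.21, without overlap, but the difference of -0.23 ± 0.16 did not pass (adjusted p = 0.774). Tbx21, the Th1 regulator known to drive Cxcr3, averaged 6.63 to 6.75 over the 4 groups.

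Ccr2, the receptor by which monocytes and some effector T cells follow CCL2, was below the median on every array. It stood at 5.50, 5.15 and 5.35 in GFP+ Tfh, against 5.90, 6.36 and 6.02 in CXCR5-PD1- cells. It stood at 5.43, 6.0 and 5.57 in GFP- Tfh, against 5.51, 6.12 and 5.83 in CXCR5+PD1- cells. GFP+ Tfh overlapped neither PD1- group, but the nearest values were 5.50 in GFP+ Tfh and 5.51 in CXCR5+PD1- cells. GFP- Tfh overlapped all 3 other groups. The difference of -0.49 between GFP+ Tfh and CXCR5+PD1- cells had an adjusted p of 0.271 when fitted with no filter. Fitted with no filter, the difference of -0.76 between GFP+ Tfh and CXCR5-PD1- cells had an adjusted p of 0.0583. Of 15 measured markers of monocytes, macrophages and dendritic cells, 3 lay above the median on all 12 arrays and 8 on none, and the log2 of their summed level was 10.23 to 10.93 (GFP+ Tfh), 10.44 to 10.76 (GFP- Tfh), 10.30 to 10.66 (CXCR5+PD1-) and 10.24 to 10.70 (CXCR5-PD1-). The monocyte genes Csf1r and Cd14 were also below the median on every array, at 5.43 and 5.66 in GFP+ Tfh and 5.43 and 5.48 in CXCR5-PD1- cells. Of the markers above the median, Tyrobp averaged 7.37 ± 0.15 in GFP+ Tfh and 7.93 ± 0.99 in CXCR5-PD1- cells (limma adjusted p = 0.540). Cd68 averaged 7.38 ± 0.52 in GFP+ Tfh and 7.70 ± 0.35 in CXCR5-PD1- cells (limma adjusted p = 0.566). Both had their highest mean in CXCR5-PD1- cells, as Ccr2 did. Cst3, the other marker above the median on all 12 arrays, had its lowest mean there, at 8.48 ± 0.11. Cst3 averaged 8.58 ± 1.02 in GFP+ Tfh (limma adjusted p = 0.934) and was highest in GFP- Tfh, at 9.17 ± 0.30. Lyz2 averaged 7.08 ± 0.72 in GFP+ Tfh, against 5.6 ± 0.28 in CXCR5+PD1- cells (adjusted p = 0.0447) and 6.25 ± 0.77 in CXCR5-PD1- cells (adjusted p = 0.271). The part of such cells in the Ccr2 level was not tested.

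**Figure D2:**
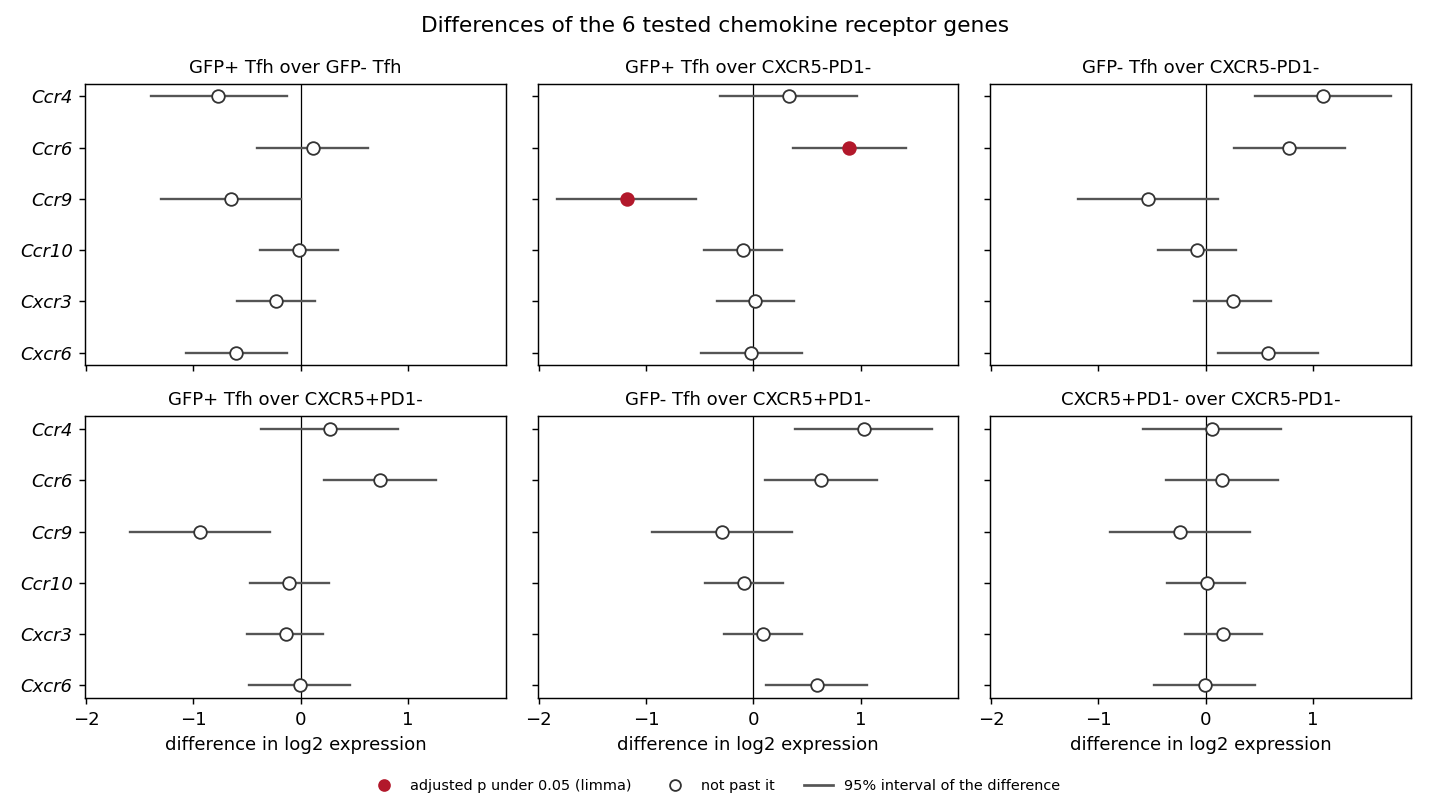
Difference in log2 expression of the 6 tested receptor genes in each of the 6 contrasts, with the 95% interval from the limma fit, where red points passed an adjusted p of 0.05. Ccr6 (0.89) and Ccr9 (-1.18) passed in GFP+ Tfh over CXCR5-PD1-, and no point passed in the other 5 panels.

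Over the 6 contrasts, limma called 2 member differences, Ccr6 and Ccr9 in GFP+ Tfh over CXCR5-PD1-. Of all genes tested, 6.2% were called there (2.45% higher and 3.75% lower), and 2 members and 18.7% of all genes had an unadjusted p under 0.05. In GFP- Tfh over CXCR5-PD1- it called 0 members and 3.82% of all genes, and 3 members and 13.2% of all genes had an unadjusted p under 0.05. In GFP+ Tfh over CXCR5+PD1- it called 0 members and 5.89% of all genes, with 2 members and 18.2% of all genes under 0.05 unadjusted. In GFP- Tfh over CXCR5+PD1- it called 0 members and 3.75% of all genes, with 3 members and 12.8% of all genes under 0.05 unadjusted. In GFP+ over GFP- Tfh it called 0 members and 0.0445% of all genes, with 2 members and 7.37% of all genes under 0.05 unadjusted. In CXCR5+PD1- over CXCR5-PD1- limma called 0 members and 0% of all genes, with 0 members and 1.22% of all genes under 0.05 unadjusted. These contrasts share arrays, so their counts are not independent.

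GFP+ Tfh had lower levels than GFP- Tfh, without overlap, for 4 of the 8 members (Ccr4, Ccr8, Cxcr3 and Cxcr6) and higher levels for 0. Ccr4, Cxcr3 and Cxcr6 were apart only narrowly, with nearest values of 7.81 and 7.83, 6.98 and 6.99, and 7.72 and 7.73. None of these was called, and Ccr8 was not tested. Of all 19937 genes, 3.69% were lower and 4.95% higher without overlap in that contrast. The median difference was -0.47 over the 8 members and -0.41 over the 6 tested members, against -0.02 over all genes tested. In GFP- Tfh over CXCR5-PD1-, Ccr4, Ccr6 and Ccr8 were higher without overlap, where 8.1% of all genes were, and the median over the members was 0.42. The same 3 members were higher without overlap in GFP- Tfh over CXCR5+PD1-, where 8.49% of all genes were. In GFP+ Tfh over CXCR5-PD1-, Ccr6 was higher and Ccr9 and Ccr2 lower without overlap, where 14.7% of all genes did not overlap either way. The same 3 members did so, in the same directions, in GFP+ Tfh over CXCR5+PD1-, where 15% of all genes did not overlap. For Ccr2 the nearest values there were 5.50 and 5.51. CXCR5+PD1- and CXCR5-PD1- cells overlapped for all 8 members, and 9.4% of all genes did not overlap there.

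Of the chemokine receptors tested, Cxcr5 and Ccr7 differed most between Tfh and CXCR5-PD1- cells. Of 15 receptor genes listed besides the members, 14 had a probe set and 7 were tested. In GFP+ Tfh over CXCR5-PD1-, 1 rose and 1 fell, with a median difference of 0.17 against 0.00 over all genes tested, and in GFP- Tfh over the same cells 1 rose and 1 fell, with a median of 0.26. All genes tested were called either way at 6.2% and 3.82% in these contrasts. Ccr7, which guides T cells into lymph node T zones, fell by 2.52 ± 0.20 in GFP+ Tfh (adjusted p = 4.29e-05) and by 1.78 ± 0.20 in GFP- Tfh (adjusted p = 0.000582). Cxcr5, whose protein was used in the sort, rose by 3.23 ± 0.26 in GFP+ Tfh and by 2.50 ± 0.26 in GFP- Tfh (adjusted p = 4.29e-05 and 0.000310). Cxcr4, a receptor of the germinal centre dark zone, rose by 0.42 ± 0.11 in GFP+ Tfh relative to CXCR5+PD1- cells (adjusted p = 0.0401). Its other differences did not pass, at 0.33 ± 0.11 (GFP+ Tfh over CXCR5-PD1-, adjusted p = 0.0986), 0.26 ± 0.11 (GFP- Tfh over CXCR5-PD1-, adjusted p = 0.292) and 0.35 ± 0.11 (GFP- Tfh over CXCR5+PD1-, adjusted p = 0.120). In GFP+ over GFP- Tfh 0 of the 7 were called. Ccr1, Ccr3, Cxcr2 and Xcr1 lay below the median on every array, and Xcr1 and Ccr1 are neighbours of Cxcr6.

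**Figure D3:**
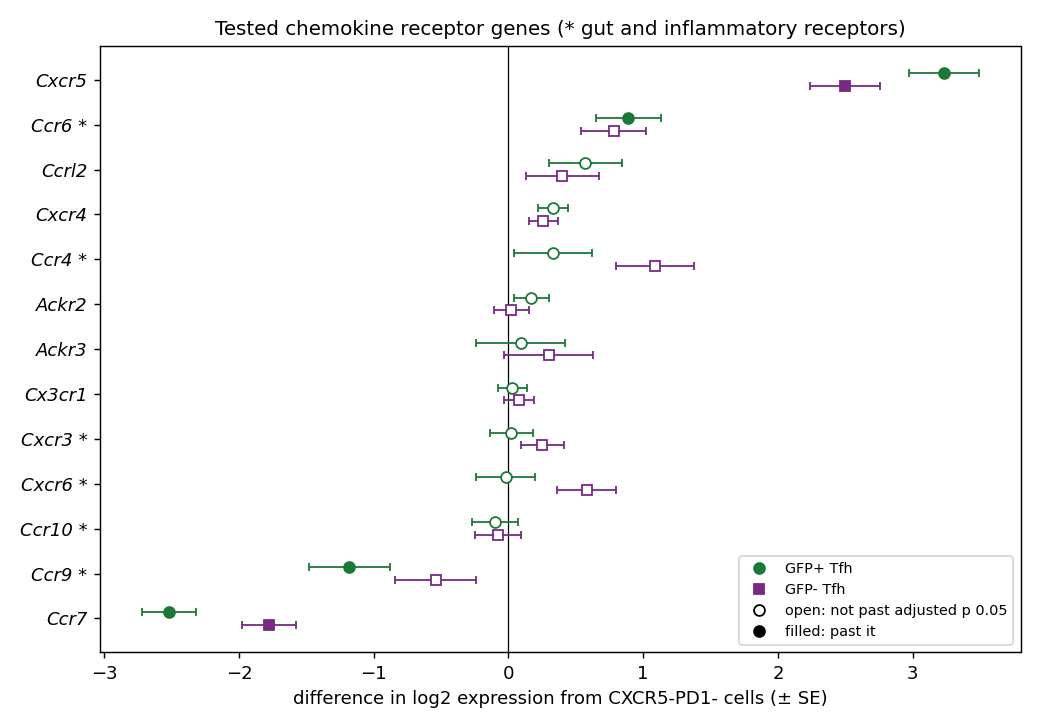
Difference in log2 expression ± SE of the 13 tested chemokine receptor genes in GFP+ Tfh (circles) and GFP- Tfh (squares), each relative to CXCR5-PD1- cells, where filled symbols passed an adjusted p of 0.05. Cxcr5 (3.23 and 2.50) and Ccr7 (-2.52 and -1.78) lie at the ends, and the starred gut and inflammatory receptors lie between -1.18 and 1.09.

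Chemokines that these receptors bind were low in the sorted cells. Of 15 ligand genes listed, 14 had a probe set, 9 were above the median on no array, and 4 (Ccl1, Ccl7, Ccl25 and Cxcl10) were tested. With limma, 0 of the 4 were called in each of the 6 contrasts, with median differences of -0.13 to 0.08. Cxcl10, which binds CXCR3, averaged 7.30 ± 0.72 in GFP+ Tfh and 7.67 ± 0.63 in GFP- Tfh, against 6.53 ± 0.11 in CXCR5+PD1- and 6.69 ± 0.38 in CXCR5-PD1- cells.

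Genes that carry the receptor signal were nearly all expressed, with 23 of 25 measured above the median on all 12 arrays. Of 24 tested, 1 rose and 2 fell in GFP+ Tfh over CXCR5-PD1-, and 1 rose and 1 fell in GFP- Tfh over the same cells, with median differences of -0.03 and 0.10. Over CXCR5+PD1- cells 1 rose and 1 fell in GFP+ Tfh, and 2 rose and 1 fell in GFP- Tfh. The share of all genes tested that was called either way in these 4 contrasts was 3.75% to 6.2%. Rgs16, which shortens G protein signals, rose by 1.28 ± 0.33 in GFP+ Tfh (adjusted p = 0.0407), and in GFP- Tfh differed by 1.27 ± 0.33 (adjusted p = 0.0583). Gng2, a G protein gamma subunit, rose by 1.14 ± 0.18 in GFP- Tfh (adjusted p = 0.00360) and differed by 0.61 ± 0.18 in GFP+ Tfh (adjusted p = 0.0727). Pik3r5, a regulatory subunit of the phosphoinositide 3-kinase that G proteins activate, fell by 0.75 ± 0.13 in GFP+ Tfh and by 0.78 ± 0.13 in GFP- Tfh (adjusted p = 0.00581 and 0.00549). Grk6, a kinase that shuts down receptors, fell by 0.53 ± 0.13 in GFP+ Tfh (adjusted p = 0.0394).

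Of 9 other genes of homing to and residence in the gut, 7 were tested. In each of the 4 contrasts of a Tfh with a PD1- group 3 fell and 0 rose, with median differences of -0.68 to -0.58. Over all genes tested, 3.75% to 6.2% were called either way in these contrasts, and the median differences were -0.03 to 0.00. Itgb7, the beta 7 chain of the gut homing integrin, fell by 0.88 ± 0.13 in GFP+ Tfh and by 0.96 ± 0.13 in GFP- Tfh relative to CXCR5-PD1- cells (adjusted p = 0.00228 and 0.00182). Gpr18, a receptor of intestinal lymphocytes in mice, fell by 1.98 ± 0.22 in GFP+ Tfh (adjusted p = 0.000280) and fell by 1.10 ± 0.22 in GFP- Tfh (adjusted p = 0.0173). S1pr1, the receptor for exit from lymphoid organs, fell by 3.21 ± 0.24 in GFP+ Tfh (adjusted p = 2.61e-05) and fell by 2.66 ± 0.24 in GFP- Tfh (adjusted p = 0.000115). The alpha 4 integrin gene Itga4, the partner chain of Itgb7, differed by -0.58 ± 0.18 in GFP+ Tfh (adjusted p = 0.0837) and -0.17 ± 0.18 in GFP- Tfh (adjusted p = 0.886). Itgae, an integrin chain that binds epithelial cadherin, averaged 6.07 ± 0.36 in GFP+ Tfh and 7.41 ± 0.26 in GFP- Tfh (difference -1.34 ± 0.28, adjusted p = 0.220). In GFP+ over GFP- Tfh 0 of the 7 were called.

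Regulators of the T helper lineages in which these receptors are known were also measured. Of 12 tested, 3 rose and 1 fell in GFP+ Tfh over CXCR5-PD1-, and 5 rose and 0 fell in GFP- Tfh over the same cells, with median differences of 0.20 and 0.31. Over CXCR5+PD1- cells 3 rose and 0 fell in GFP+ Tfh, and 4 rose and 0 fell in GFP- Tfh. Among all genes tested, 3.75% to 6.2% were called either way in these 4 contrasts. Bcl6, the regulator that defines Tfh cells, rose by 1.66 in GFP+ Tfh and by 1.39 in GFP- Tfh over CXCR5-PD1- cells, as did Maf (1.47 and 1.15) and Ikzf2 (1.80 and 1.71). Foxp3 fell by 0.92 ± 0.18 in GFP+ Tfh (adjusted p = 0.00980). Rora and Ahr, regulators known from Th17 cells, rose by 0.78 ± 0.19 and 0.85 ± 0.19 in GFP- Tfh over CXCR5-PD1- cells (adjusted p = 0.0432 and 0.0261). In GFP+ Tfh over the same cells, the contrast in which Ccr6 was called, they differed by 0.44 ± 0.19 and 0.50 ± 0.19 and did not pass (adjusted p = 0.225 and 0.164). Gata3, the Th2 regulator, averaged 9.12 ± 0.40 in GFP+ Tfh and 9.40 ± 0.14 in GFP- Tfh, against 9.02 ± 0.32 in CXCR5+PD1- and 9.31 ± 0.19 in CXCR5-PD1- cells. Innate lymphoid cells that carry CD4 and CCR6 could pass the gate. Of 9 measured markers of innate lymphoid, CD8, NK and gamma delta cells, 3 were above the median on all 12 arrays and 3 on none, and the log2 of their summed level was 10.29 to 10.50 in GFP+ Tfh and 10.24 to 10.67 in GFP- Tfh, against 9.93 to 10.26 in CXCR5+PD1- and 9.93 to 10.46 in CXCR5-PD1- cells. Kit averaged 8.60 ± 0.11 in GFP+ Tfh and 7.56 ± 0.17 in CXCR5-PD1- cells (adjusted p = 0.00673). Il23r and Tnfsf11 also had higher means in GFP+ Tfh, but their differences of 0.80 ± 0.47 and 0.13 ± 0.16 did not pass (limma adjusted p = 0.413 and 0.755). Cd8b1 (6.32 against 6.99, adjusted p = 0.0598), Cd8a (6.37 against 6.87, adjusted p = 0.244) and Tyrobp had lower means there. Over the 6 tested markers the median difference was -0.18 in this contrast. Cd8b1 fell by 0.82 ± 0.19 in GFP- Tfh over CXCR5-PD1- cells (adjusted p = 0.0329). The part of innate lymphoid cells in the Ccr6 difference was not tested.

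Genes whose profile over the 12 arrays was most like that of the called members were found by the root mean square difference of their values, each gene centred on its own mean. Nearest to Ccr6 were Top2a, the DNA topoisomerase of dividing cells, at 0.17, Abhd17c at 0.19 and Mtbp at 0.19, where the median over all genes tested was 0.52. Top2a averaged 8.19 in GFP+ Tfh and 8.20 in GFP- Tfh, against 7.50 in CXCR5+PD1- and 7.39 in CXCR5-PD1- cells. Nearest to Ccr9 were Alg11, a mannosyltransferase gene, at 0.26, the sterol synthesis gene Hmgcs1 at 0.30 and the RNA methyltransferase gene Mettl16 at 0.30, where the median was 0.59. Alg11 averaged 7.52 in GFP+ Tfh and 8.06 in GFP- Tfh, against 8.22 in CXCR5+PD1- and 8.42 in CXCR5-PD1- cells. These distances describe the 12 arrays, which share their groups and replicate numbers, and carry no test.

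The replicate number went with the level of some members in every group. Replicate 3 was the lowest of the 3 arrays in all 4 groups for Ccr9 and Cxcr6, in 3 groups for Ccr6, and in none for Ccr10 and Ccr2. Of all genes tested, 2.12% had replicate 3 lowest in all 4 groups and 13% in at least 3 groups. As replicate 3 was the female one of each group, sex and replicate number cannot be told apart here. Between arrays of the same number, GFP+ Tfh lay above CXCR5-PD1- cells in Ccr6 by 1.01, 1.09 and 0.58. For Cxcr6, GFP- Tfh lay above CXCR5-PD1- cells by 0.60, 0.59 and 0.54. GFP- Tfh lay above them in Ccr4 by 0.76, 0.89 and 1.64 and in Ccr8 by 1.06, 1.86 and 0.26.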

How the data were processed

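The deposited data are log2 expression values of 34760 probe sets on 12 Affymetrix mouse gene arrays in 1 table. Per the submitters' processing notes, the authors used RMA from the oligo package. A genome build was not given in the sources used here. Printed coordinates are those of the RefSeq promoter table. RMA corrects background, equalises the arrays' distributions and summarises probes, which compresses low signals and removes any shift shared by most genes. Each of the 12 columns carried its sample's name, and 0 went unused.

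Gene names came from the annotation of the platform, updated with RefSeq's GRCm38.p6 table. Of the probe sets, 21640 had 1 gene symbol, 1321 several and 11799 none here. Where a gene had several probe sets, the one with the highest mean was used. Genes above the array's median on at least 3 arrays were tested by lmFit and eBayes of limma 3.58.1 (R 4.3.3) in 1 model of all 12 arrays and 4 groups, with 8 residual degrees of freedom and 11.5 after moderation. The 6 contrasts share 1 estimate of the spread. The code was tested on simulated data. Precision is limited by the number of arrays.

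The members, the other gene lists, the tests and the rule for named genes were chosen with earlier results of these data known. The genes named come from the 8 members, the sort markers, listed genes that were called or had the smallest p, and the 3 genes nearest to each called member. Not all of these are named. The sort markers Pdcd1 and Cd4 and the epithelial marker Lgals4 were called in some contrasts and are not described. Levels of Ccr1, Ccr3, Cxcr2, Xcr1, Ms4a1, Cd79a, Cd79b, Cd22, Csf1r, Cd14, Tyrobp, Cd68, Cst3, Cd8a, Il23r, Tnfsf11, Tbx21, Gata3 and Itgae, all from those lists, were named after their values were seen, as were the 4 tested ligands and the T cell markers.

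Whether arrays of one replicate number deviate from their group means together was checked. The correlations for CXCR5+PD1- over CXCR5-PD1- were 0.210 to 0.353, all above 0.1, and the replicate block changed no call there. In the other contrasts at least 1 pair lay below 0.1, although for most pairs the array of the same number correlated best. The main tests used no block, and the members called with it are given below. As alternatives, the filter, the normalisation, the weights, the arrays fitted, a replicate block and the choice of probe set were varied, and single replicates were left out.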

Additional observations from a re-analysis of the deposited data

How the results depend on the processing

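With 3 arrays a group and most members near the array median, calls at the threshold move with small changes. The 2 members called in GFP+ Tfh over CXCR5-PD1- became 0 with no filter on low values, 0 under 1 weight per group, 0 when the 2 groups were fitted alone and 1 (Ccr9) with cyclic loess, and 0 to 1 when replicates were left out. Ccr6 stayed past the threshold without GFP+ Tfh replicate 3 or CXCR5-PD1- replicate 1, and Ccr9 without CXCR5-PD1- replicate 3 or without replicate 3 of every group, but each lost its call without any other of the 6 replicates, and Ccr6 also without replicate 3 of every group (adjusted p = 0.0675). In GFP- Tfh over CXCR5-PD1- the count of 0 became 2 (Ccr4 and Ccr6) under 1 weight per group, 1 (Ccr4) when the 2 groups were fitted alone and 0 to 1 when replicates were left out, with Ccr4 past the threshold without CXCR5-PD1- replicate 1. In GFP- Tfh over CXCR5+PD1- it became 1 (Ccr4) under 1 weight per group and 1 when the 2 groups were fitted alone, and stayed at 0 over replicates left out. In GFP+ Tfh over CXCR5+PD1- it became 1 (Ccr9) with the 2 groups alone, and 0 to 1 over replicates left out (Ccr6 without GFP+ Tfh replicate 3, Ccr9 without replicate 3 of every group). With the replicate block the members called were 2 in GFP+ Tfh over CXCR5-PD1- (adjusted p = 0.00786 for Ccr6 and 0.00449 for Ccr9), 2 (Ccr4 and Ccr6) in GFP- Tfh over CXCR5-PD1-, 2 (Ccr6 and Ccr9) in GFP+ Tfh over CXCR5+PD1-, 1 (Ccr4) in GFP- Tfh over CXCR5+PD1-, and 0 in GFP+ over GFP- Tfh and in CXCR5+PD1- over CXCR5-PD1-. The cause of these shifts was not tested. Of 468 member differences under alternatives, 440 kept their sign, and those that turned were at most 0.29 in size and not called.

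The count of all genes called in GFP+ over GFP- Tfh, 5, was 3 under 1 weight per group, 0 when the 2 groups were fitted alone and 0 to 237 with replicates left out, the highest without GFP+ Tfh replicate 1. In GFP+ Tfh over CXCR5-PD1- the 697 became 314, 255 and 347 to 1142 in the same order (398 without replicate 3 of every group), and in GFP+ Tfh over CXCR5+PD1- the 662 became 331, 234 and 336 to 1007 (390). In GFP- Tfh over CXCR5-PD1- the 429 became 791, 665 and 227 to 326 (271), and in GFP- Tfh over CXCR5+PD1- the 422 became 843, 776 and 214 to 319 (267).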
